A study of Mus musculus with 64 samples.

Results

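The genes described are the 8 core genes of MHC class II antigen presentation in mouse bone marrow-derived macrophages (BMMs): the chain genes H2-Aa, H2-Ab1 and H2-Eb1, the invariant chain gene Cd74, the transactivator gene Ciita, and the peptide editor genes H2-DMa, H2-DMb1 and H2-DMb2. They were chosen by name for their role. All 8 of 8 passed the filter on low counts, among 14537 genes tested of 55487 in the count files.

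Bone marrow came from 4 Ahr+/+ and 4 Ahr-/- mice, female for the wild type, aged 8 to 12 weeks, on the C57BL/6JRj background to which the knockout had been backcrossed. The cells were grown for 6 days with M-CSF-rich L929 supernatant and were then exposed for 6 h to the vehicle DMSO (0.01%), to the aryl hydrocarbon receptor (AhR) ligand BaP (benzo[a]pyrene, 1 µM) or to the ligand I3C (indole-3-carbinol, 10 µM). Activation then lasted 3 h or 20 h, with 10000000 heat-killed Salmonella Enteritidis (hk S.E.) added per ml, or, after DMSO only, was left out. Both genotypes went through the same 4 conditions at both times, which gives 16 groups of 4 libraries each, 64 in all, and all groups share the M-CSF culture. The Ahr deletion is carried by every cell of the animal, so the libraries cannot separate an effect in the macrophage from one on its precursors.

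MHC class II molecules carry peptides from the endosome to the cell surface for CD4+ T cells. Each is a pair of an alpha and a beta chain, which the invariant chain guides to the endosome, where the DM molecule exchanges a leftover invariant chain fragment for peptide. The transactivator CIITA switches the genes on through a protein complex on the X and Y boxes of their promoters, and interferon-γ is the classical inducer of Ciita in macrophages. Mice of the C57BL/6 background make the I-A molecule (H2-Aa with H2-Ab1) but lack a working gene for the alpha partner of H2-Eb1.

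Of the members, 6 lie in one stretch of chromosome 17 (GRCm38), chr17:34119541-34316674, which is 197134 bp long. H2-DMa (chr17:34119541-34139101, plus strand), H2-DMb2 (chr17:34143307-34151555, plus) and H2-DMb1 (chr17:34153072-34160230, plus) form a block at its left end. H2-Ab1 (chr17:34257689-34269419, plus), H2-Aa (chr17:34282744-34287823, minus) and H2-Eb1 (chr17:34305867-34316674, plus) follow. Ciita is at chr16:10480059-10528418 on the plus strand, and Cd74 is on another chromosome. H2-DMa overlaps Brd2 on the opposite strand, a gene with 749528 counts over the 64 libraries against 32726 for H2-DMa, and Ciita overlaps Dexi on the opposite strand. Counting used strand, so reads of the overlapping pairs were assigned separately. H2-DMb1 and H2-DMb2 are near copies of each other. Of the 100-base windows of the longest H2-DMb2 transcript, 12.9% are also found in H2-DMb1, and reads that fit both may have been dropped or split.

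The X and Y boxes are shown because they are the sequence that several members share. RefSeq promoters of GRCm38.p6, covering 250 bases before and 50 bases from each start, held entries for H2-Aa, H2-Eb1, H2-DMa, H2-DMb1 and H2-DMb2. H2-Ab1 and Ciita were not matched, and Cd74 was not searched. Each line below is 60 bases read 5′ to 3′ on the gene's strand, with the Y box TGATTGG and the X box core AACNNATGA in capitals. The stretches are chr17:34287862-34287921 (minus) for H2-Aa, chr17:34305758-34305817 (plus) for H2-Eb1, chr17:34153080-34153139 (plus) for H2-DMb1 and chr17:34145109-34145168 (plus) for H2-DMb2.
H2-Aa: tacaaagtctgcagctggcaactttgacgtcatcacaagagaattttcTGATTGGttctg
H2-Eb1: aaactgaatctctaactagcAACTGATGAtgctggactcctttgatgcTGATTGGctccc
H2-DMb1: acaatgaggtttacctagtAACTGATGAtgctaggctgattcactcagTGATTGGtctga
H2-DMb2: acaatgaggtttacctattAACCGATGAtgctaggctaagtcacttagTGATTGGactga
The Y box began 50 bases before the RefSeq start of H2-Aa, 61 before that of H2-Eb1, 63 before that of H2-DMb1 and 92 before that of H2-DMb2. The gene positions given above come from another annotation, GENCODE. In it the H2-DMb1 and H2-DMb2 spans begin further upstream and contain the stretches shown. The X box core ended 19 bases before the Y box in H2-Eb1 and 20 bases before it in H2-DMb1 and H2-DMb2, while the H2-Aa window held the Y box without these X box letters. Of all 32851 promoters in the table, 7.82% held the Y box letters and 2.85% the X box core letters on either strand. Only 6 promoters, 0.0183%, had the Y box starting 9 to 39 bases after the first base of the core on the gene's strand, and 4 of them belong to class II genes, namely H2-Eb1, H2-DMb1, H2-DMb2 and H2-Ob. The AhR response element core GCGTG was in 32.4% of all promoters and in none of the 4 promoters shown or the H2-DMa promoters. H2-DMa held none of the 3 motifs. The motif letters were picked with these sequences in view, and a match or its absence describes only these letters in these windows.

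Libraries held between 12152496 and 233047331 read pairs on genes (median 24499165), with the highest total in unactivated Ahr+/+ replicate 4 at 20 h and all others at or below 50644601. Values are given as CPM, which are read counts scaled to a common normalised library size. The 7 macrophage markers summed to between 17304 and 32225 CPM in the DMSO groups, and the 6 listed B cell genes to between 0.532 and 6.40 CPM. Cd79b, a chain of the B cell receptor complex, was the only B cell gene with enough counts to be tested (group means 0.575 to 5.16 CPM), and Cd79a, Ms4a1, Pax5 and Ebf1 stayed at or below a mean of 0.157 CPM. The 10 listed dendritic cell genes summed to between 7.32 and 47.1 CPM, with Xcr1, Cd209a and Clec9a at or below 0.133 CPM. Of this list, Itgax, Ccr7 and Dpp4 can also be expressed by activated macrophages. Ahr reads were present in the knockout and did not check the deletion, with 24.1, 21.3, 25.9 and 28.1 CPM in activated Ahr-/- libraries at 20 h against 14.9, 12.7, 12.7 and 11.9 CPM in Ahr+/+ libraries. The AhR target Ahrr answered to BaP at 20 h in Ahr+/+ libraries, from 5.84, 6.16, 5.94 and 4.58 CPM to 17.2, 17.9, 20.7 and 18.9 CPM, and was at 0.656 to 1.18 CPM with BaP in Ahr-/- libraries. In bulk RNA, fewer cells of a type and less RNA per cell cannot be told apart, and this holds for every level below.

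**Figure D1:**
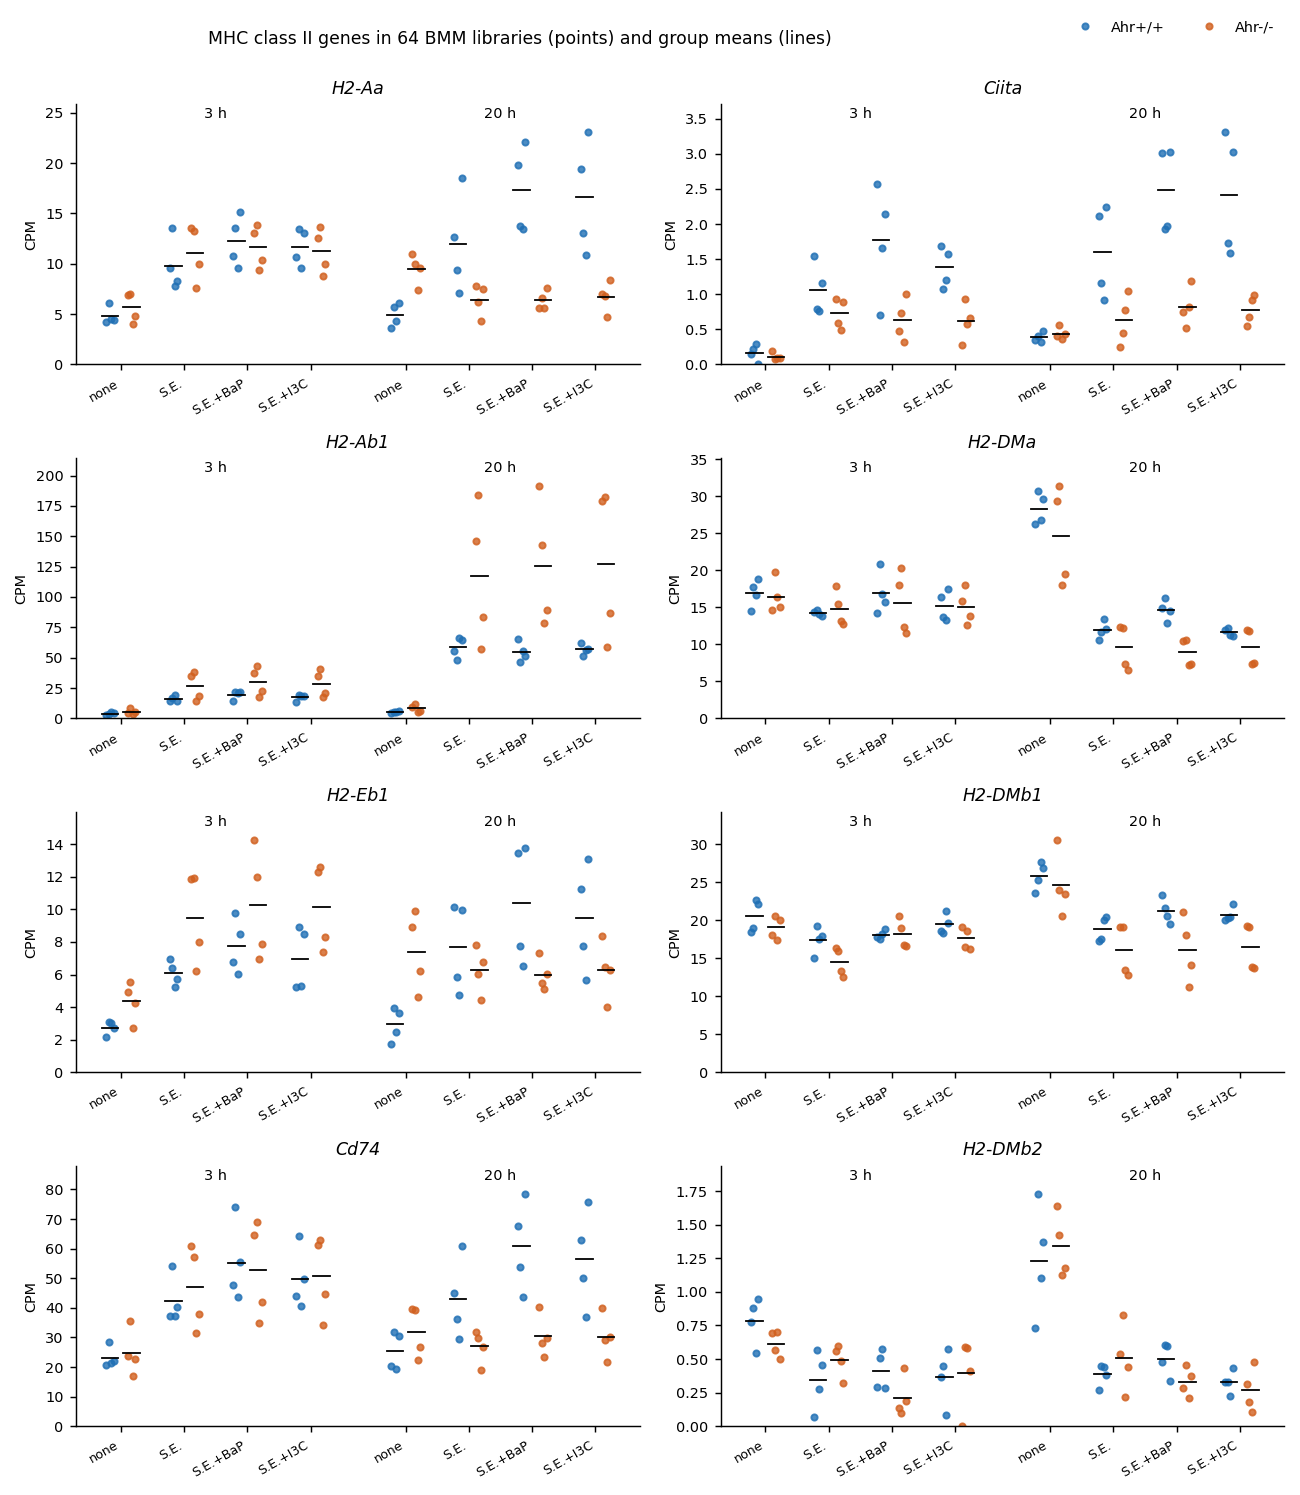
CPM of the 8 members in every library (vertical axis of each panel) by condition (horizontal axis), with Ahr+/+ libraries in blue, Ahr-/- libraries in orange and lines at group means. H2-Ab1 separates activated from unactivated libraries at both times, and the H2-DM genes are highest in unactivated libraries at 20 h.

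Levels of different genes are compared per kilobase of annotated exon (RPKM). This length can exceed that of a transcript by a different factor in each gene. H2-Ab1 has 2568 bases of annotated exon and a longest protein-coding transcript of 1212 bases, and H2-Eb1 has 1944 and 1669 bases. The order between genes therefore depends in part on the annotation. In unactivated Ahr+/+ BMMs at 3 h, Cd74 had the highest mean level (13.8 RPKM), followed by H2-DMb1 (12.2 RPKM) with overlapping libraries. H2-DMa (4.92 RPKM) stood below both. The chain genes H2-Ab1 (1.57 RPKM), H2-Eb1 (1.41 RPKM) and H2-Aa (1.276 RPKM) overlapped each other and stood below H2-DMa. H2-DMb2 (0.451 RPKM) and Ciita (0.0175 RPKM) came last, without overlap between neighbours, so the gene that encodes the class II switch was the scarcest of its own set. After 20 h of activation the order in Ahr+/+ BMMs opened with Cd74 (25.5 RPKM, 17.5 to 36.2) and H2-Ab1 (22.8 RPKM, 18.7 to 25.8), which overlapped. In activated Ahr-/- BMMs at 20 h H2-Ab1 led (45.7 RPKM, 22.1 to 71.5), above Cd74 (16.1 RPKM, 11.4 to 19.0) without overlap.

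**Figure D2:**
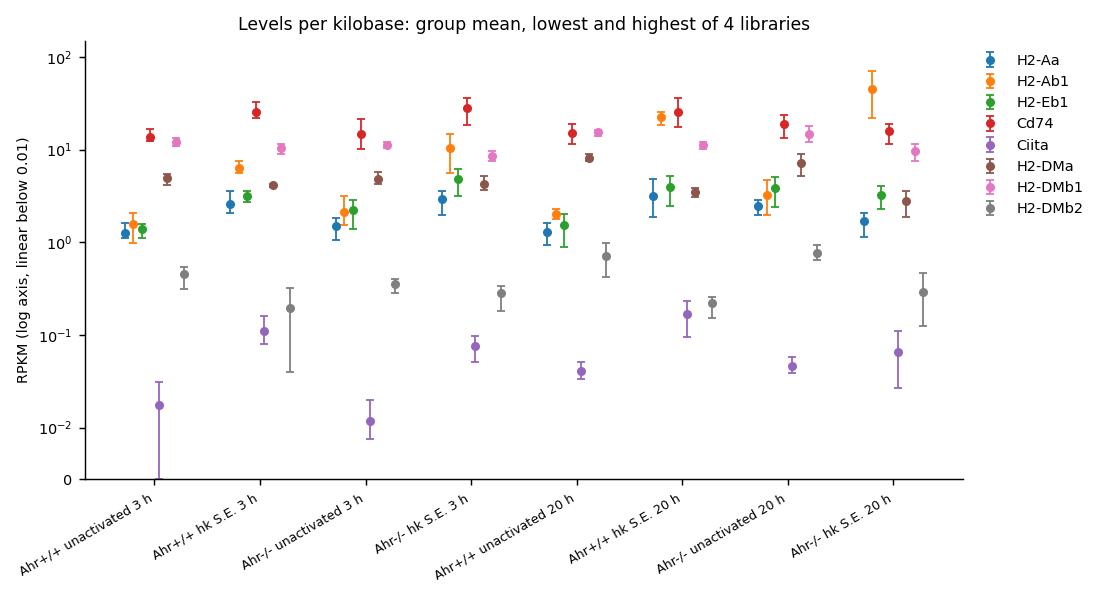
RPKM of the 8 members (vertical axis, logarithmic, linear below 0.01) in the 8 DMSO groups (horizontal axis), with points at the mean and bars from the lowest to the highest of 4 libraries. H2-Ab1 moves from the level of the other chain genes to that of Cd74 or above after 20 h of activation.

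The first comparison asks what activation with hk S.E. did to the members after DMSO. At 3 h in Ahr+/+ BMMs, Ciita, all 3 chain genes and Cd74 rose, and no member fell. At 20 h the same 5 genes were above unactivated BMMs and all 3 H2-DM genes fell. In Ahr-/- BMMs the 3 h response had the same 5 risers, but at 20 h H2-Ab1 was the only member that passed the test upward. A gene was called at an adjusted p below 0.01. Every adjusted p in the text, unless another tool is named, comes from the quasi-likelihood test of edgeR and was adjusted by Benjamini and Hochberg's method over the 14537 genes. Members called were 5 of 8 in Ahr+/+ at 3 h (all genes: 56.6%), 8 of 8 in Ahr+/+ at 20 h (58.6%), 6 of 8 in Ahr-/- at 3 h (57.3%) and 4 of 8 in Ahr-/- at 20 h (54.3%). These shares lie on both sides of the background, since most genes tested responded to hk S.E. The members' median log2 fold change was 0.94 at 3 h in both genotypes and 1.01 in Ahr+/+ at 20 h, and it was -0.39 in Ahr-/- at 20 h. Over all genes those medians were -0.10, -0.08, 0.00 and 0.02.

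H2-Ab1, the beta chain of I-A, had the largest fold change of the members at 20 h. At 20 h it was at 4.64, 5.34, 4.86 and 5.90 CPM in unactivated Ahr+/+ libraries (5.19 ± 0.561, SD, n = 4) and at 55.8, 47.97, 66.2 and 64.3 CPM in activated ones (58.6 ± 8.40). Ahr-/- BMMs went from 9.55, 12.1, 5.09 and 6.34 CPM to 146, 184, 56.8 and 83.7 CPM. Every activated library was far above every unactivated one in both genotypes, and the highest activated library was 3.24 times the lowest in Ahr-/- and 1.38 times the lowest in Ahr+/+. The rise was 11.2-fold in Ahr+/+ (log2 3.48, SE 0.35, adjusted p = 8.3e-13) and 14.6-fold in Ahr-/- (log2 3.86, SE 0.36, adjusted p = 4.25e-14). At 3 h H2-Ab1 was at 2.53, 3.86, 5.28 and 4.46 CPM in unactivated Ahr+/+ libraries and at 14.4, 16.7, 19.4 and 14.3 CPM in activated ones. That was a rise of 2.01 on the log2 scale (SE 0.37, adjusted p = 3.5e-06), and Ahr-/- libraries rose by 2.30 (SE 0.35, adjusted p = 7.89e-08).

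H2-Aa, the alpha chain that pairs with H2-Ab1, had a smaller fold change and passed the test upward at 20 h in Ahr+/+ BMMs but not in Ahr-/- BMMs. Unactivated Ahr+/+ libraries at 20 h had 3.59, 5.72, 4.30 and 6.07 CPM and activated ones 12.7, 9.41, 7.13 and 18.5 CPM. Unactivated Ahr-/- libraries had 10.97, 9.96, 7.42 and 9.61 CPM and activated ones 7.79, 6.22, 4.31 and 7.49 CPM. The Ahr+/+ groups did not overlap and activation raised them, whereas the Ahr-/- activated libraries lay mostly below their controls. The log2 fold change was 1.27 in Ahr+/+ (SE 0.24, adjusted p = 8.24e-06) and -0.55 in Ahr-/- (SE 0.24, adjusted p = 0.0456), the latter short of the threshold. With the replicate number as a block, which pairs the libraries of this comparison, the Ahr-/- value was -0.56 with an adjusted p of 0.00324. At 3 h H2-Aa rose in both, by 1.01 (SE 0.26, adjusted p = 0.000526) in Ahr+/+ and by 0.96 (SE 0.25, adjusted p = 0.00067) in Ahr-/-.

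H2-Eb1, a beta chain without an alpha partner on this background, followed H2-Aa. At 20 h it went from 1.74, 3.96, 2.48 and 3.64 CPM to 10.2, 5.83, 4.75 and 9.99 CPM in Ahr+/+ BMMs (log2 1.35, SE 0.29, adjusted p = 5.71e-05). In Ahr-/- BMMs it was at 8.93, 9.90, 4.63 and 6.20 CPM without and at 7.82, 6.03, 4.45 and 6.79 CPM with hk S.E., a difference of -0.22 (adjusted p = 0.524). The knockout groups thus overlapped while the wild-type groups did not. At 3 h it rose by 1.14 (SE 0.32, adjusted p = 0.00134) in Ahr+/+ and by 1.13 (SE 0.29, adjusted p = 0.000724) in Ahr-/- BMMs, and the former was at an adjusted p of 0.0218 with the library identifier series as a covariate.

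Cd74, whose product escorts class II chains to the endosome, had a smaller fold change, called at 20 h in Ahr+/+ BMMs and not in Ahr-/- BMMs. At 20 h unactivated Ahr+/+ libraries had 20.3, 31.7, 19.4 and 30.6 CPM and activated ones 45.1, 36.1, 29.5 and 60.9 CPM, which overlap (log2 0.75, SE 0.26, adjusted p = 0.00903). The Ahr-/- values were 39.6, 39.2, 22.3 and 26.8 CPM without and 31.9, 29.9, 19.1 and 26.9 CPM with hk S.E. (log2 -0.24, adjusted p = 0.429). At 3 h Cd74 rose by 0.87 (SE 0.26, adjusted p = 0.00318) in Ahr+/+ and by 0.92 (SE 0.26, adjusted p = 0.00165) in Ahr-/-. These calls depended on single libraries and on the normalisation. The Ahr+/+ call at 20 h was lost without unactivated replicate 1 (adjusted p = 0.0369) or 3 (0.0404) or activated replicate 1 (0.0195) or 4 (0.083). That at 3 h was lost without unactivated replicate 1 (0.0115) or 3 (0.0105) or activated replicate 2 (0.0215), and the Ahr-/- call at 3 h without unactivated replicate 3 (0.0134) or activated replicate 1 (0.0127). With upper-quartile normalisation the adjusted p was 0.0178 in Ahr+/+ at 3 h, 0.0467 in Ahr+/+ at 20 h and 0.0122 in Ahr-/- at 3 h, and with the library identifier series as a covariate the Ahr+/+ value at 3 h was 0.037. The Ahr+/+ value at 20 h was 0.0131 with limma.

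Ciita was scarce, with 0 to 143 counts per library, but its response was clear. At 3 h unactivated Ahr+/+ libraries had 0.146, 0.226, 0.296 and 0 CPM and activated ones 1.55, 0.792, 0.762 and 1.16 CPM (log2 2.58, SE 0.48, adjusted p = 5.61e-06). Ahr-/- libraries went from 0.190, 0.0752, 0.0913 and 0.0904 CPM to 0.934, 0.595, 0.485 and 0.895 CPM (log2 2.59, SE 0.52, adjusted p = 1.87e-05). The groups were apart in both genotypes at this time. At 20 h Ahr+/+ libraries went from 0.349, 0.408, 0.319 and 0.482 CPM to 2.11, 1.16, 0.912 and 2.24 CPM (log2 1.97, SE 0.36, adjusted p = 3.65e-06). Ahr-/- libraries had 0.402, 0.557, 0.369 and 0.438 CPM without and 0.253, 0.450, 0.773 and 1.05 CPM with hk S.E., groups that overlap (log2 0.60, SE 0.39, adjusted p = 0.179).

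The peptide editors moved the other way and late. H2-DMa, the alpha chain of the DM molecule, was at 26.2, 30.7, 26.8 and 29.6 CPM in unactivated Ahr+/+ libraries at 20 h and at 10.6, 11.6, 13.4 and 12.1 CPM in activated ones, 2.37-fold lower (log2 -1.25, SE 0.18, adjusted p = 2.13e-08). Ahr-/- BMMs went from 29.4, 31.4, 18.1 and 19.5 CPM to 12.3, 12.2, 7.32 and 6.55 CPM (log2 -1.36, SE 0.18, adjusted p = 3.96e-09). No activated library reached an unactivated one in either genotype. H2-DMb1, one of the DM beta chains, fell from 23.6, 25.3, 27.7 and 26.8 CPM to 17.3, 17.5, 20.1 and 20.4 CPM in Ahr+/+ (log2 -0.46, SE 0.13, adjusted p = 0.00175) and by 0.61 on the log2 scale in Ahr-/- BMMs (SE 0.13, adjusted p = 5.45e-05). H2-DMb2, the scarce DM beta copy, fell from 0.732, 1.73, 1.10 and 1.37 CPM to 0.270, 0.448, 0.440 and 0.383 CPM in Ahr+/+ BMMs (log2 -1.67, SE 0.37, adjusted p = 9.11e-05), and the Ahr-/- change was -1.40 (SE 0.36, adjusted p = 0.000697). The DM genes therefore fell at 20 h in both genotypes, while Ahr+/+ chain genes rose.

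At 3 h 1 editor passed the test in 1 genotype. H2-DMa differed by -0.25 in Ahr+/+ (adjusted p = 0.233) and by -0.15 in Ahr-/- BMMs (adjusted p = 0.475). It was H2-DMb1 in Ahr-/- BMMs, falling by 0.39 (SE 0.13, adjusted p = 0.0094), and the call was lost without unactivated replicate 1 (0.0109), 2 (0.0315) or 4 (0.0251) or activated replicate 3 (0.0356) or 4 (0.0437), and with limma (0.0234) or DESeq2 (0.0277 over all libraries). H2-DMb1 in Ahr+/+ was at -0.24 (adjusted p = 0.121). H2-DMb2 in Ahr+/+ was at -1.17 (SE 0.45, adjusted p = 0.0199) and was called without activated replicate 2 (0.00899). Its Ahr-/- value was -0.32 (adjusted p = 0.513).

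**Figure D3:**
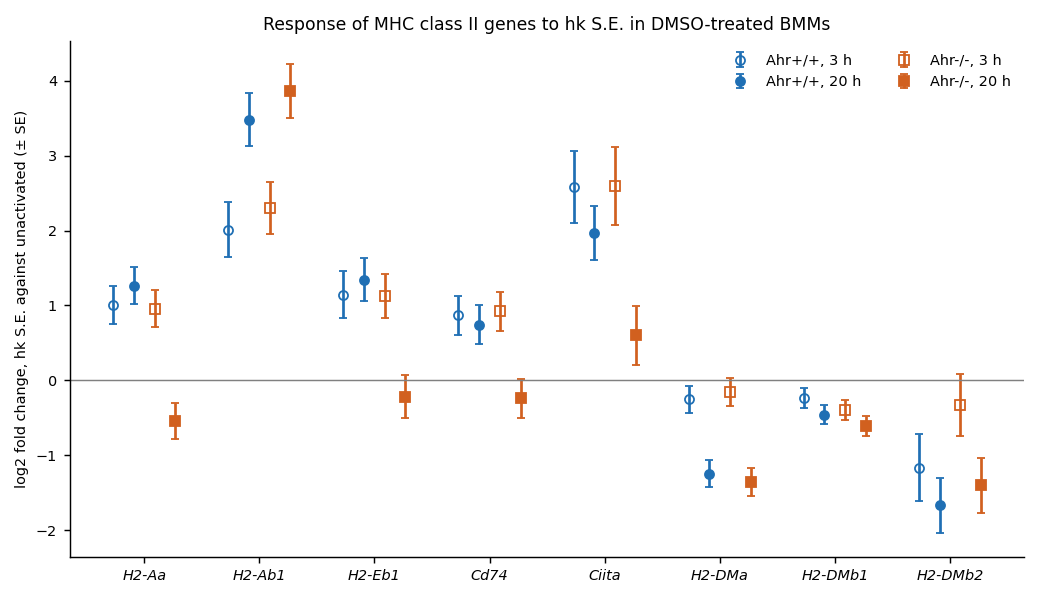
Log2 fold change of activated over unactivated BMMs after DMSO (vertical axis, points with standard errors) for each member (horizontal axis) in the 4 combinations of genotype and time. H2-Aa, H2-Eb1, Cd74 and Ciita are at 0.75 or more in 3 of the 4 combinations and at 0.60 or less in Ahr-/- BMMs at 20 h, where H2-Ab1 is at 3.86.

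The second comparison asks whether the activation response itself depended on Ahr or on time. At 3 h no member's response passed edgeR's test of a difference between genotypes, 0 were below an unadjusted p of 0.05, and DESeq2 and limma called 0 as well (all genes called by edgeR: 0.0138%). At 20 h 2 of 8 members passed (all genes: 4.41%), and both had a lower response in Ahr-/- BMMs. H2-Aa differed by -1.81 on the log2 scale (SE 0.34, adjusted p = 0.00025), and H2-Eb1 by -1.56 (SE 0.41, adjusted p = 0.00793). The H2-Aa difference stayed past the threshold under all 26 alternatives run, those leaving out single libraries included, with values between -1.99 and -1.41. H2-Eb1 lost its call without any 1 of 9 of the 16 libraries, namely unactivated Ahr+/+ replicates 1 and 3, activated Ahr+/+ replicates 1 and 4, unactivated Ahr-/- replicates 1 and 2 and activated Ahr-/- replicates 2, 3 and 4, with adjusted p between 0.011 and 0.0269, and also with limma (0.0136). Cd74 (-0.98, SE 0.36, adjusted p = 0.0786) and Ciita (-1.37, SE 0.53, adjusted p = 0.104) had the same sign and did not pass. H2-Ab1, the partner of H2-Aa, differed by 0.38 (SE 0.46, adjusted p = 0.726) and H2-DMa by -0.11 (SE 0.25, adjusted p = 0.878), and neither passed. The summed level of the dendritic cell genes fell with activation at 20 h in Ahr-/- libraries, whereas the Ahr+/+ groups overlapped. At 20 h it was 22.9 to 39.7 CPM in unactivated and 13.4 to 16.2 CPM in activated Ahr-/- libraries, and 28.5 to 43.1 CPM in unactivated and 26.8 to 47.1 CPM in activated Ahr+/+ libraries. At 3 h activated libraries of both genotypes were above unactivated ones, with 12.4 to 18.3 CPM against 7.69 to 10.9 CPM in Ahr+/+ and 14.0 to 19.9 CPM against 7.32 to 9.14 CPM in Ahr-/-. The sum includes Ccr7, which activated macrophages can also express. With BaP in activated Ahr+/+ libraries at 20 h, where H2-Aa had its highest group mean, the sum was 19.5 to 31.6 CPM. In unactivated Ahr+/+ libraries the sum was higher at 20 h than at 3 h, with H2-Aa means of 4.92 and 4.84 CPM. The part of the dendritic cell genes in the H2-Aa and H2-Eb1 differences was not tested.

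Between 20 h and 3 h the response differed for members of every role. In Ahr+/+ BMMs 2 members passed (all genes: 47.8%), with a stronger response at 20 h than at 3 h for H2-Ab1 (1.47, SE 0.49, adjusted p = 0.00885) and a lower one for H2-DMa (-0.99, SE 0.26, adjusted p = 0.000774). Of the 16 libraries, unactivated replicate 1 and activated replicate 3 at 3 h and activated replicate 2 at 20 h could be left out without loss of the H2-Ab1 call. Leaving out any of the other 13 gave adjusted p between 0.0101 and 0.0254, and upper-quartile normalisation gave 0.0127. The adjusted p was 0.0122 with DESeq2 size factors and 0.0126 with the library identifier series as a covariate. In Ahr-/- BMMs 6 members passed (all genes: 44.7%). H2-Ab1 had the stronger response at 20 h (1.56, SE 0.48, adjusted p = 0.00451). The other 5 had the lower one, namely H2-Aa (-1.505, SE 0.35, adjusted p = 0.000216), H2-DMa (-1.20, SE 0.26, adjusted p = 7.04e-05), H2-Eb1 (-1.34, adjusted p = 0.00444), Cd74 (-1.16, adjusted p = 0.00586) and Ciita (-1.99, adjusted p = 0.00926). These calls depended on single libraries too, except those of H2-Aa and H2-DMa. H2-Ab1 lost its call (adjusted p up to 0.0244) without unactivated replicate 2 or activated replicates 3 or 4 at 3 h, or unactivated replicates 3 or 4 or activated replicates 1 or 2 at 20 h. H2-Eb1 lost it (up to 0.0168) without unactivated replicate 3 or activated replicates 1 or 2 at 3 h, or unactivated replicates 1 or 2 or activated replicate 3 at 20 h. Cd74 lost it (up to 0.0205) without unactivated replicates 1, 3 or 4 or activated replicates 1 or 2 at 3 h, or unactivated replicates 1 or 2 or activated replicate 3 at 20 h. Ciita lost it (up to 0.0229) without unactivated replicates 2, 3 or 4 or activated replicates 1 or 4 at 3 h, or unactivated replicates 1, 2 or 4 or activated replicates 1 or 2 at 20 h. The Ciita call was also lost with limma (0.0311), with the library identifier series as a covariate (0.0137) and with nearly no count filter (0.0168). That of H2-Ab1 was also lost with DESeq2 on the compared groups alone (0.0203).

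The divergence of the I-A chains can be read within each library as the count of H2-Ab1 over that of H2-Aa, which needs no normalisation between libraries. At 20 h the ratio was 0.934 to 1.29 in unactivated and 3.48 to 9.28 in activated Ahr+/+ libraries. It was 0.659 to 1.22 in unactivated and 11.2 to 29.5 in activated Ahr-/- libraries. The activated knockout libraries were thus above the activated wild-type libraries without overlap, and per kilobase of exon the mean ratios were 26.8 and 8.23. With BaP the activated Ahr+/+ libraries at 20 h had ratios of 2.31 to 4.15. The ratio of Cd74 to H2-Aa counts moved far less, with means between 3.34 and 5.19 over the groups. An unequal change between H2-Ab1 and H2-Aa alone does not say which of them departed from the rest. In the Ahr-/- libraries at 20 h after DMSO, H2-Ab1 over H2-Eb1 was 1.02 to 1.225 without and 12.3 to 30.4 with activation. H2-Ab1 over Cd74 was 0.228 to 0.309 and 2.97 to 6.13 in the same order. H2-Eb1 over H2-Aa was 0.624 to 0.994 and 0.907 to 1.03. In these ratios H2-Ab1 departed from the other chain genes and Cd74.

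**Figure D4:**
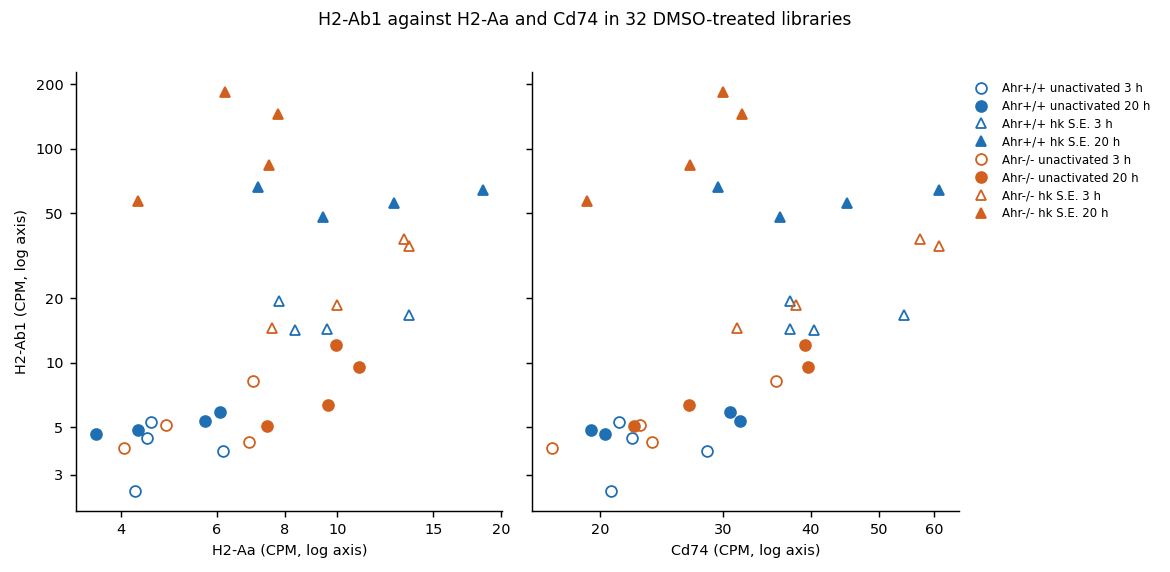
H2-Ab1 CPM (vertical, log axis) against H2-Aa CPM and against Cd74 CPM (horizontal, log axes) in the 32 DMSO libraries, coloured by genotype with symbols for activation and time. The activated Ahr-/- libraries at 20 h lie at 56.8 CPM or more of H2-Ab1 with 7.79 CPM or less of H2-Aa.

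The third comparison is between genotypes within a condition. At 3 h no member passed edgeR's test in unactivated (all genes: 1.21%) or activated BMMs (2.83%), 1 and 2 members were below an unadjusted p of 0.05, and DESeq2 and limma called 0 in both. Activated H2-Ab1 was at 35.2, 37.8, 14.6 and 18.6 CPM in Ahr-/- libraries against 14.4, 16.7, 19.4 and 14.3 CPM in Ahr+/+ libraries (log2 0.71, adjusted p = 0.226), so 2 knockout libraries stood high and 2 within the range of the wild type. In unactivated BMMs at 20 h 1 member passed (all genes: 0.702%), H2-Eb1, higher in Ahr-/- (log2 1.27, SE 0.29, adjusted p = 0.0088) with no overlap. Its call was lost without Ahr+/+ replicate 1 (0.0637), 2 (0.0103), 3 (0.0378) or 4 (0.0192), or without Ahr-/- replicate 1 (0.0263), 2 (0.0578) or 4 (0.0185), and with limma (0.0139) or upper-quartile normalisation (0.0104). H2-Aa also did not overlap there, at 7.42 CPM or more in Ahr-/- against 6.07 CPM or less in Ahr+/+ (log2 0.92, adjusted p = 0.0302).

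In activated BMMs at 20 h 2 members passed (all genes: 12.5%), and both were lower in Ahr-/-. H2-Aa was 1.85-fold lower (log2 -0.89, SE 0.24, adjusted p = 0.00529), with 6.45 ± 1.58 CPM against 11.9 ± 4.94 CPM (SD, n = 4 each). Ciita was 2.45-fold lower (log2 -1.30, SE 0.35, adjusted p = 0.00536), and in both genes the highest knockout library overlapped the lowest wild-type library. H2-Ab1 had the opposite sign (log2 1.00, SE 0.31, adjusted p = 0.0166), and its call appeared without Ahr-/- replicate 3 (0.00351). Cd74 (-0.67, adjusted p = 0.0552), H2-DMa (-0.32, adjusted p = 0.22), H2-DMb1 (-0.23, adjusted p = 0.234), H2-Eb1 (-0.29, adjusted p = 0.53) and H2-DMb2 (0.36, adjusted p = 0.585) did not pass. The H2-Aa call was lost without Ahr+/+ replicate 1 (0.0157) or 4 (0.0948) or Ahr-/- replicate 2 (0.0173) or 3 (0.0318), and the Ciita call without Ahr+/+ replicate 1 (0.026) or 4 (0.0423) or Ahr-/- replicate 1 (0.0402) or 2 (0.0267).

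Library identifiers moved with these genotype results. All activated Ahr+/+ libraries at 20 h carry identifiers of one number series and all Ahr-/- libraries at 20 h those of another, so series and genotype cannot be told apart within the activated libraries at 20 h. With the series as a covariate over all 64 libraries, H2-Aa was at -0.99 (adjusted p = 0.0563), Ciita at -1.22 (adjusted p = 0.242) and unactivated H2-Eb1 at 1.46 (adjusted p = 0.0558). Dendritic cell genes also moved with the genotype in activated libraries at 20 h. Of the 6 tested of 10 listed, 4 were lower in Ahr-/- and none higher (all genes called: 12.5%). Their summed level was 26.8 to 47.1 CPM in Ahr+/+ and 13.4 to 16.2 CPM in Ahr-/- libraries. Flt3, which marks dendritic cells and their precursors, had mean levels of 0.696 and 0.1003 CPM, Zbtb46 0.670 and 0.110 CPM and Kit 0.757 and 0.212 CPM. Ccr7, which is part of the sum and which activated macrophages can also express, had 26.0 and 6.51 CPM. Neither the share of dendritic cells nor the part of the dendritic cell genes in the H2-Aa and Ciita differences was tested. Of 7 macrophage markers, Cd68 (-0.69) and Fcgr1 (-1.25) were lower and none higher in the same comparison (all genes called: 12.5%).

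The fourth comparison sets 20 h against 3 h. In unactivated BMMs 8 of 8 members had higher fitted values at 20 h in both genotypes, most of them short of the threshold. H2-DMa was the only one called in Ahr+/+ (all genes: 6.07%), at 0.74 (SE 0.18, adjusted p = 0.00302). It was called no more without replicate 1 (0.0197) or 3 (0.0105) of the 3 h group or replicate 2 (0.0129) or 4 (0.0117) of the 20 h group, nor with the library identifier series as a covariate (0.0188). In unactivated Ahr-/- BMMs none passed edgeR's test (all genes: 6.98%), although 6 were below an unadjusted p of 0.05 and DESeq2 called 2 over all libraries and limma 0. Among the 6 were Ciita (1.87, adjusted p = 0.0107), called without replicate 1 of the 3 h group (0.00809), and H2-DMa (0.57, adjusted p = 0.0242), called without replicate 3 of the 20 h group (0.00767).

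Activated libraries split the chains again over time. In Ahr+/+ BMMs 1 of 8 members passed (all genes: 59.5%), H2-Ab1, which was higher at 20 h by 1.85 (SE 0.33, adjusted p = 2.55e-06). Activated Ahr-/- BMMs had 4 members that passed (all genes: 56%). H2-Ab1 was again higher (2.15, SE 0.33, adjusted p = 9.85e-08), and H2-Aa (-0.77, SE 0.25, adjusted p = 0.0052), Cd74 (-0.80, SE 0.26, adjusted p = 0.00596) and H2-DMa (-0.63, SE 0.18, adjusted p = 0.00236) were lower. H2-Eb1 was at -0.59 (adjusted p = 0.0661), and at -0.57 (adjusted p = 0.00627) with the replicate number as a block, which pairs these libraries too. The H2-Aa call was lost without replicate 1 (0.0252) or 2 (0.0255) at 3 h or 2 (0.0129) or 3 (0.0332) at 20 h. That of Cd74 was lost without replicate 1 (0.0363) or 2 (0.028) at 3 h or 3 (0.0332) or 4 (0.0133) at 20 h, and that of H2-DMa without replicate 1 (0.0163) at 3 h or 3 (0.0174) or 4 (0.0268) at 20 h. With the library identifier series as a covariate the adjusted p of H2-Aa, Cd74 and H2-DMa was 0.0255, 0.0499 and 0.0313, and after DMSO the activated Ahr-/- libraries at 20 h were of one series and those at 3 h of another, so series and time cannot be told apart within these libraries.

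The last comparison asks what the AhR ligands did to the members in activated BMMs. Without a replicate block, no member passed edgeR's test for BaP or I3C in either genotype at either time, and DESeq2 and limma called 0 in these 8 comparisons and in the tests of their differences. The counts below an unadjusted p of 0.05 were 1 for BaP in Ahr+/+ at 20 h, 2 for BaP and 1 for I3C in Ahr-/- at 3 h, and 0 in the other 5 comparisons. Few genes of any kind passed: BaP called 0.0482% of genes in Ahr+/+ at 3 h, 0.234% in Ahr+/+ at 20 h, 0.0275% in Ahr-/- at 3 h and 0.0138% in Ahr-/- at 20 h. For I3C the shares were 0.131%, 0.509%, 0.0206% and 0.206% in the same order. Members had positive values in Ahr+/+ BMMs for 8 of 8 genes with BaP and 8 of 8 with I3C at 3 h, and for 7 and 5 of 8 at 20 h, with medians of 0.39 (BaP) and 0.22 (I3C) at 20 h. The Ahr-/- counts were 6 of 8 with BaP and 6 of 8 with I3C at 3 h, and 3 and 6 of 8 at 20 h.

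H2-Aa had the lowest p with BaP in Ahr+/+ BMMs. At 20 h it was at 19.9, 13.7, 13.4 and 22.1 CPM with BaP and at 19.4, 13.1, 10.9 and 23.1 CPM with I3C, against 12.7, 9.41, 7.13 and 18.5 CPM with DMSO. Every BaP library was above 3 of the 4 DMSO libraries, and the groups overlapped at the highest DMSO library. The BaP difference was 0.53 (95% interval 0.06 to 1.00, adjusted p = 0.4). Cd74 was at 67.6, 53.7, 43.5 and 78.4 CPM with BaP and at 62.8, 50.2, 36.8 and 75.6 CPM with I3C, against 45.1, 36.1, 29.5 and 60.9 CPM with DMSO, a BaP difference of 0.50 (interval -0.01 to 1.01, adjusted p = 0.491). Ciita showed the same order, with 3.01, 1.93, 1.97 and 3.02 CPM with BaP, 3.31, 1.74, 1.58 and 3.03 CPM with I3C and 2.11, 1.16, 0.912 and 2.24 CPM with DMSO, and a BaP difference of 0.63 (SE 0.33). H2-Ab1 did not show it, at 65.3, 46.6, 55.8 and 51.1 CPM with BaP and 61.9, 51.6, 56.6 and 57.3 CPM with I3C, with intervals of -0.73 to 0.53 and -0.67 to 0.58. A doubling of H2-Ab1 by either ligand (1 on the log2 scale) lies outside those intervals. The BaP results of H2-Aa and Cd74 depended on the replicate block. With a block for each genotype at each time, H2-Aa (0.57, adjusted p = 0.0013) and Cd74 (0.52, adjusted p = 0.000332) were called. With a block within genotype neither was called. The replicate numbers were not taken to pair these libraries, since their lowest correlation, 0.0988, fell just short of 0.1. The same DMSO libraries were taken as paired with those of I3C. In both genes each BaP library was above the DMSO library of the same number. BaP and I3C were given at different doses, so their values stand side by side only.

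In Ahr-/- BMMs at 20 h the ligands left H2-Aa at 5.66, 6.56, 5.63 and 7.65 CPM with BaP and at 6.96, 6.80, 4.69 and 8.41 CPM with I3C, against 7.79, 6.22, 4.31 and 7.49 CPM with DMSO. H2-Ab1 was at 191, 143, 78.4 and 89.6 CPM with BaP and at 179, 183, 59.2 and 86.9 CPM with I3C. No member's ligand response passed edgeR's test of a difference between genotypes, and none was below an unadjusted p of 0.05 (all genes: 0.0138% for BaP at 3 h and 0% for the other 3 tests). No member passed the test of a difference between times in Ahr+/+ BMMs either (0% for BaP, 0.0275% for I3C, no member below 0.05).

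Over all 16 groups each member had its own order. H2-Ab1 fell into clear tiers. The 3 activated Ahr-/- groups at 20 h came first (means 127, 125 and 117 CPM), then the 3 activated Ahr+/+ groups at 20 h (58.6, 56.9 and 54.7 CPM), which overlapped them. Activated groups at 3 h (30.0 to 16.2 CPM) followed without overlap, and the 4 unactivated groups (8.27 to 4.03 CPM) came last, again without overlap. H2-Aa, H2-Eb1, Cd74 and Ciita all had their highest mean in Ahr+/+ BMMs with BaP at 20 h, at 17.3, 10.4, 60.8 and 2.48 CPM. In each of these genes the libraries overlapped those of the group with the next highest mean. For H2-Eb1 that group was Ahr-/- with BaP at 3 h, at 10.3 CPM. H2-DMa (28.3 and 24.6 CPM) and H2-DMb1 (25.8 and 24.6 CPM) were highest in unactivated Ahr+/+ and Ahr-/- BMMs at 20 h. Across the 16 group means of log2 CPM, Pearson's r was 0.96 between H2-Aa and Cd74, 0.87 between H2-Aa and H2-Eb1 and 0.81 between H2-Aa and Ciita. It was 0.34 between H2-Aa and H2-Ab1 and -0.86 between H2-Ab1 and H2-DMa. The points share libraries, normalisation and controls, so these values describe the groups.

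The spread between libraries of a group was shared in part by replicate number. After subtracting group means, H2-Ab1 in Ahr-/- libraries averaged 0.39 and 0.61 on the log2 scale for replicates 1 and 2 and -0.69 and -0.31 for replicates 3 and 4. Replicates 3 and 4 were below their group mean in 8 of 8 knockout groups, and replicate 2 in 0 of 8. In Ahr+/+ libraries the averages lay between -0.16 and 0.13. H2-Aa and Cd74 had a shared pattern in both genotypes, with replicate 3 below the mean in 8 of 8 groups each (H2-Aa -0.33 and -0.39, Cd74 -0.34 and -0.47 in Ahr+/+ and Ahr-/-). Across the 64 libraries these deviations had an r of 0.92 between Cd74 and H2-Eb1, 0.87 between H2-Aa and H2-Eb1 and 0.82 between H2-Ab1 and H2-DMa, although the group means of the last pair ran in opposite directions. Between Ciita and Cd74 it was 0.09. The mean deviation of the chain genes and Cd74 had an r between -0.27 and 0.76 with the 7 macrophage markers, between 0.13 and 0.33 with the 6 dendritic cell genes tested and of 0.19 with Cd79b. The labels do not say whether a replicate number marks a mouse.

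**Figure D5:**
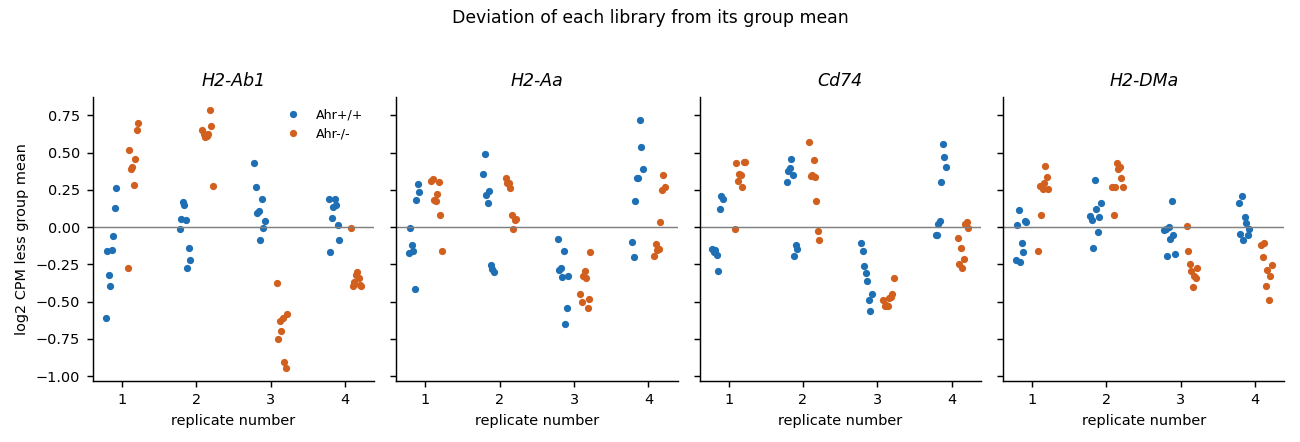
Log2 CPM less the group mean (vertical axis) by replicate number (horizontal axis) for H2-Ab1, H2-Aa, Cd74 and H2-DMa, 8 libraries per number and genotype. Replicates 3 and 4 of Ahr-/- lie below 0 for H2-Ab1, and replicate 3 lies below 0 in both genotypes for H2-Aa and Cd74.

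The 16 group means of each member were scaled to a common mean and spread and averaged over the 8 members. By the 5 highest correlations, the genes most like this average were Hmox2 (r = 0.90), Ensa (0.86), Ms4a7 (0.86), Gm48065 (0.84) and Tmem140 (0.83). Some members ran in opposite directions, as H2-Ab1 and H2-DMa did (r = -0.86), so the average need not follow any single member. Over the 64 deviations from group means, Ctsf (0.80), Lsp1 (0.80), Atp6v0b (0.79), Kdelr1 (0.79) and Penk (0.79) were most like the mean deviation of the 3 chain genes and Cd74.

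Of the other class II genes, H2-Oa and H2-Ob, the chains of the DO molecule that restrains DM, could be tested. H2-Ob was at 0.584, 0.598, 0.849 and 0.809 CPM in activated Ahr+/+ libraries at 20 h and at 3.23, 4.54, 1.84 and 2.39 CPM in Ahr-/- libraries (log2 2.05, adjusted p = 4.59e-06). The groups did not overlap, and within Ahr-/- replicates 1 and 2 were the higher pair, as for H2-Ab1. B cells are known to express H2-Ob. The listed B cell genes summed to 0.532 to 0.943 CPM in the same Ahr+/+ libraries and to 1.03 to 1.61 CPM in the Ahr-/- libraries, and their part in the H2-Ob difference was not tested. H2-Oa differed by -0.87 (adjusted p = 0.0668). As for the members, library identifier series and genotype cannot be told apart in activated libraries at 20 h. This limit holds for every listed gene compared between genotypes there. H2-Ea-ps, the pseudogene of the missing alpha partner, had no counts in the DMSO groups.

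The counts for the following lists stand beside a background in which activation changed most genes. Of the 14537 genes tested, 3525 rose and 4697 fell in Ahr+/+ at 3 h and 4347 rose and 4173 fell at 20 h, and in Ahr-/- 3702 rose and 4628 fell at 3 h and 4115 rose and 3783 fell at 20 h. Of the 7 genes of the X and Y box complex, 2 rose and 2 fell with activation in Ahr+/+ BMMs at 3 h, and 3 rose and 1 fell at 20 h. The Ahr-/- counts were the same at 3 h, where 2 rose and 2 fell, and 1 rose and 1 fell at 20 h. Rfx5, which binds the X box, rose by 1.37 at 3 h in Ahr+/+ (adjusted p = 2.69e-20), while its partners Rfxank (-1.64) and Rfxap (-1.22) fell. In activated BMMs at 20 h, Nfya (-0.32) and Nfyb (-0.31), subunits of the Y box factor, were lower in Ahr-/-. The other 5 did not pass there (all genes called: 12.5%).

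Of 9 genes on the interferon-γ route to Ciita, 8 could be tested, and Ifng itself stayed at or below a mean of 0.0695 CPM. Activation raised 7 and lowered 1 in Ahr+/+ BMMs at 3 h, raised 6 and lowered 1 in Ahr+/+ at 20 h and Ahr-/- at 3 h, and raised 6 and lowered 2 in Ahr-/- at 20 h. At 20 h Irf1, a factor that binds the Ciita promoter, was at 161, 160, 164 and 192 CPM in activated Ahr+/+ libraries and at 102, 97.0, 128 and 126 CPM in Ahr-/- libraries (log2 -0.58, adjusted p = 0.000158). Those groups did not overlap. The receptor kinase gene Jak1 was lower as well (-0.38, adjusted p = 0.000243). The response to activation at 20 h was lower in Ahr-/- for Irf1 (-0.66, adjusted p = 0.0049) and Jak1 (-0.41, adjusted p = 0.00961).

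Of 7 endosomal processing genes tested at 20 h, 1 rose and 5 fell in Ahr+/+ and 1 rose and 6 fell in Ahr-/- BMMs, whereas 2 rose and none fell at 3 h in either genotype. Ctsl, a cathepsin that trims the invariant chain, fell by 1.72 in Ahr+/+ and by 1.94 in Ahr-/-. Lgmn, an asparagine-specific protease, was 0.88 log2 units lower in activated Ahr-/- than in Ahr+/+ BMMs at 20 h (log2 -0.88, adjusted p = 1.84e-09). Of the 7 processing genes, 4 were lower there and none higher (all genes called: 12.5%). Of 3 genes of surface turnover, Cd83, which protects class II from removal, rose by 3.41 at 3 h in both genotypes and fell by 0.99 and 1.41 at 20 h in Ahr+/+ and Ahr-/-. March1, the ligase that removes class II from the surface, rose at 20 h by 1.60 and 1.49. With BaP or I3C at 20 h in Ahr+/+ BMMs no gene of these 5 lists was called (all genes: 0.234% and 0.509%).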

How the data were processed

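RNA of 64 BMM cultures was sequenced with a stranded mRNA kit. Per the labels and the methods, the authors demultiplexed reads with bcl2fastq 2.19.0.316, aligned them to mm10 (GENCODE M22) with HISAT2 2.1.0 and counted pairs on exons with HTSeq 0.9.1 (intersection-strict, reverse strand), and deposited raw counts per gene for each library. They also deposited variance-stabilised log2 values from DESeq2, used here only for an alternative. Between 19.2% and 25.1% of counted pairs named no gene and were left out. No pair of libraries had identical counts. Gene positions came from GENCODE M21 on GRCm38, matched by gene identifier.

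Counts were tested in R 4.3.3 with edgeR 4.0.16: TMM normalisation, a filter at a minimum count of 10, and one quasi-likelihood fit of 16 group means over 64 libraries (48 residual degrees of freedom), with Benjamini-Hochberg adjustment over 14537 genes and a threshold of 0.01. CPM used TMM-normalised library sizes, and log2 CPM a prior count of 2. RPKM divided CPM by the length of all annotated exons of a gene. The fits were tested on simulated data. DESeq2 1.42.0, limma 3.58.1, other normalisation, filters and thresholds, a covariate for the library identifier series and leaving out single libraries were the alternatives.

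All 8 members are described whatever their values, pathway and marker genes by their lists, and the most similar genes by the 5 highest correlations. Members and lists were chosen with earlier results of these data known. Values of some listed genes are not reported here. Labels give replicate numbers, not mice, so p-values measure the spread between these libraries. Same-numbered libraries deviated together, with every correlation above 0.1, for activation in Ahr-/- BMMs at 20 h (0.319 to 0.521), 20 h against 3 h in activated Ahr-/- BMMs (0.312 to 0.366), I3C in Ahr+/+ BMMs at 20 h (0.202 to 0.255) and all 4 ligand comparisons in Ahr-/- BMMs. The replicate numbers were taken to pair these libraries and no others.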

Additional observations from a re-analysis of the deposited data

Results flagged for a closer look

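In groups of 4 libraries, 1 library stood apart from the other 3 by Dixon's criterion in 3 of 128 combinations of member and group (2.34%), where chance gives about 1 in 20. H2-Aa was at 6.15 CPM in unactivated Ahr+/+ replicate 2 at 3 h, with the others at 4.24 to 4.54 CPM. H2-Ab1 was at 14.7 CPM in Ahr+/+ replicate 1 with BaP at 3 h, with the others at 21.0 to 21.6 CPM. Ciita was at 0.190 CPM in unactivated Ahr-/- replicate 1 at 3 h, with the others at 0.0752 to 0.0913 CPM.

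Differences between groups in the response to hk S.E. passed edgeR's interaction test for 10 combinations of member and comparison. Between genotypes at 20 h these were H2-Aa (-1.81 on the log2 scale, Ahr-/- less Ahr+/+) and H2-Eb1 (-1.56). Between 20 h and 3 h they were H2-Ab1 (1.47) and H2-DMa (-0.99) in Ahr+/+ BMMs. In Ahr-/- BMMs they were H2-Aa (-1.505), H2-Ab1 (1.56), H2-Eb1 (-1.34), Cd74 (-1.16), Ciita (-1.99) and H2-DMa (-1.20).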

How the results depend on the processing

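A reversal was counted where the sign changed and the unadjusted p was below 0.32 in both fits, and none was found. Values near 0 did change sign, such as Cd74 at 20 h against 3 h in activated Ahr+/+ BMMs (-0.20 to 0.16). Calls summed over the comparisons of a kind were 23 for activation, 6 for time, 3 for genotype, 2 for activation by genotype, 8 for activation by time and 0 for ligands and their interactions. At a threshold of 0.05 they were 5 for genotype and 10 for time. With the library identifier series as a covariate they were 0 for genotype and 2 for time. Activation by genotype kept 1 call with upper-quartile normalisation and 1 with limma on the variance-stabilised log2 values. Without single libraries the counts were 22 to 23 for activation, 3 to 7 for time, 1 to 3 for genotype, 1 to 2 for activation by genotype, 5 to 8 for activation by time and 0 to 0 for ligands. The cause of these shifts was not tested. H2-Ab1 kept its activation calls in all 4 comparisons under every alternative. With DESeq2 on the compared groups alone, the genotype calls in activated BMMs at 20 h were lost for H2-Aa (adjusted p = 0.0216) and Ciita (0.0276) and gained for H2-Ab1 (0.00852). Ciita and H2-DMb2 had 0 counts in single libraries, and depth limits their values most.

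With the replicate block within genotype, 14 calls were made for time, and with a replicate block for each genotype at each time, 2 for ligands in Ahr+/+ BMMs, namely BaP at 20 h for H2-Aa (0.57, adjusted p = 0.0013) and Cd74 (0.52, adjusted p = 0.000332). Same-numbered libraries of that comparison correlated at 0.0988 to 0.230, so they were not taken as paired. Cd74 in the activation by genotype test at 20 h was at -0.97 with the block within genotype (adjusted p = 0.000486). Of the same-number pairs, 19 of 32 in Ahr+/+ and 30 of 32 in Ahr-/- correlated above 0.1. For the paired ligand comparisons the block changed no call. Genotype comparisons could not be fitted with the block within genotype, nor time comparisons with a block for each genotype at each time.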
